A study of Mus musculus with 10 samples.

Results

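The genes described are 9 genes of retinoic acid synthesis, transport and response, namely Rara, Rarb, Crabp1, Crabp2, Rbp4, Aldh1a1, Aldh1a2, Cyp26a1 and Cyp26b1. They were taken by symbol from a table of 25239 mouse genes, in which all 9 were found, and all 9 passed the filter on low counts which 18419 genes passed in all. RNA was sequenced from the testis of C57BL/6 mice on postnatal day 4 (P4) and postnatal day 7 (P7). The groups were wild type (WT, 2 libraries at each age) and a conditional knockout of Lsm7 (cKO, 3 libraries at each age). The genotype label of the cKO animals is Lsm7-flfl-stra8, which names a floxed Lsm7 and Stra8. The labels do not say which promoter drives the recombinase, whether animals were pooled, or whether libraries came from separate animals. The p-values therefore speak of variation among these samples only, part of which may be technical.

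Retinoic acid is made from retinol (vitamin A). RBP4 carries retinol in the blood, retinaldehyde dehydrogenases (ALDH1A enzymes) carry out the last step of synthesis, the binding proteins CRABP1 and CRABP2 hold the product in the cytosol, and CYP26 enzymes degrade it. The receptors RARA, RARB and RARG bind DNA as partners of RXR proteins and switch target genes on when they hold the ligand. In the young testis retinoic acid drives spermatogonia, which include the stem cells for sperm, into differentiation, with Stra8 as a well known target.

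Library totals ran from 28799371 to 41797353 reads. A chi-square test over genes gave 1.98 per degree of freedom for the 2 P7 WT libraries, and 23.5 to 123 for other pairs within a group. The P7 WT libraries, so close to sampling noise, were summed and counted as 1 sample, so that every value for P7 WT rests on n = 1. P7 cKO library 1 stood apart, with 117 and 123 against the other P7 cKO libraries. Lsm7 itself was read at 25.7 to 36.2 CPM (reads scaled to a common library size by edgeR's TMM factors) in P4 WT and at 43.6 to 50.5 CPM in P4 cKO, and at 33.3 CPM in P7 WT and 20.3 to 45.2 CPM in P7 cKO. In cKO against WT, Lsm7 differed by a log2 fold change of 0.58 with an edgeR adjusted p of 0.215 at P4, and by -0.13 with an edgeR adjusted p of 0.835 at P7. Lsm7 reads were thus not shown to be lower in the libraries labelled cKO, and every genotype direction refers to that label. The count columns carry L7 in place of cKO, which was read as the Lsm7 cKO, so the genotype of these columns is an inference from their names. The labels name germ cells, but the tissue was whole testis. A list of 10 Sertoli cell markers summed to 2956 to 5331 CPM per sample and a list of 10 spermatogonial markers to 268 to 1582 CPM. In such bulk samples, fewer cells of a type and less RNA per cell cannot be told apart.

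The levels of the 9 genes spanned a wide range per length (RPKM, the CPM divided by the exon length in kilobases). In P4 WT the order of the mean levels was Aldh1a1 at 246 RPKM, Rara at 42.8, Cyp26b1 at 19.4, Aldh1a2 at 17.6, Crabp1 at 6.06, Crabp2 at 4.87, Rbp4 at 1.77, Cyp26a1 at 0.711 and Rarb at 0.496 RPKM. Neighbours in that order overlapped between samples for Cyp26b1 and Aldh1a2, for Crabp1 and Crabp2, and for Cyp26a1 and Rarb. In P4 cKO the same genes stood in the same order, from Aldh1a1 at 342 RPKM and Rara at 44.0 RPKM to Rarb at 0.476 RPKM. In the P7 WT sample the order was Aldh1a1 at 349 RPKM, Cyp26b1 at 42.2, Crabp1 at 38.6, Aldh1a2 at 24.1, Rara at 20.8, Rbp4 at 6.34, Cyp26a1 at 2.43, Crabp2 at 0.867 and Rarb at 0.299 RPKM. In P7 cKO Crabp1 came second at 67.2 RPKM, above Rara at 37.9, Cyp26b1 at 26.8 and Aldh1a2 at 26.4 RPKM. The ranges of Cyp26b1 (18.3 to 31.5 RPKM) and Aldh1a2 (23.0 to 30.6 RPKM) overlapped there.

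**Figure D1:**
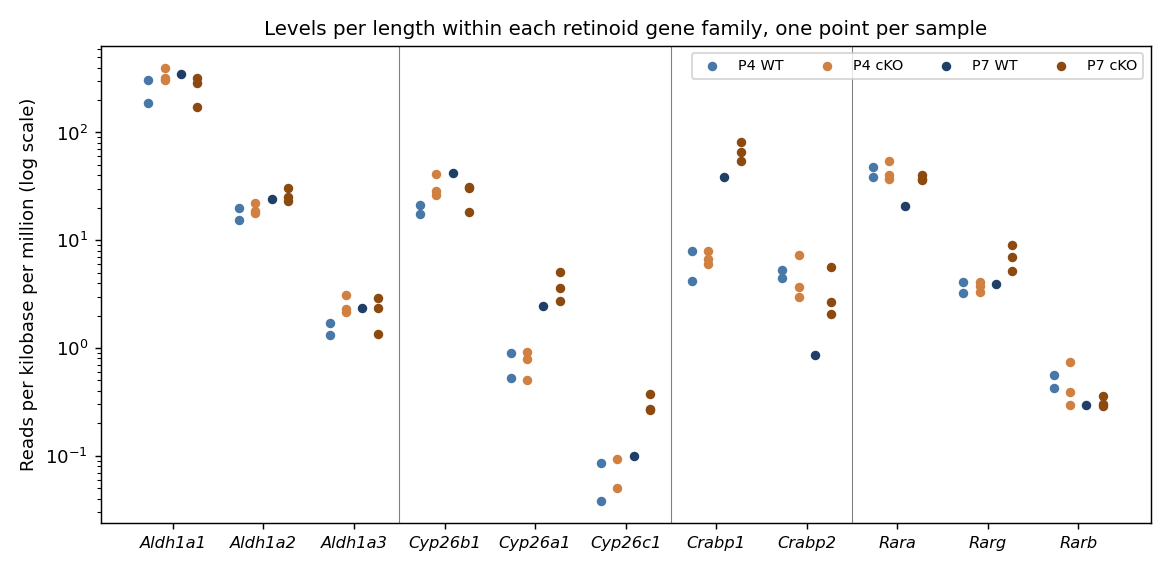
Level per length (RPKM, log axis) of the retinaldehyde dehydrogenases, CYP26 enzymes, CRABP proteins and RAR receptors, with 1 point per sample and the group as colour. Aldh1a1, Cyp26b1 and Rara lie at the top of their families in all samples, and Crabp1 parts from Crabp2 at P7. Cyp26c1 in P4 cKO library 2 had no read and is not drawn.

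The first question was how the genes change from P4 to P7, the days around which spermatogonia begin to differentiate. In WT, 4 of the 9 genes rose (Crabp1, Rbp4, Cyp26a1 and Cyp26b1) and 2 fell (Crabp2 and Rara), where 21.8% of all genes tested (11.8% higher and 9.97% lower) were called by edgeR's quasi-likelihood test at an adjusted p under 0.05. In cKO, 3 of the 9 rose (Crabp1, Rbp4 and Cyp26a1) and none fell at that threshold, against 29.2% of all genes (14.5% higher and 14.7% lower). The median log2 change of the 9 genes was 0.51 in WT and -0.22 in cKO, beside -0.03 and 0.00 over all genes tested. The groups did not overlap for 9 of the 9 genes in WT, where the single P7 sample makes this easy (85.4% of all genes, 42.6% higher and 42.8% lower), and for 4 of the 9, all higher, in cKO (46.1% of all genes, 22.9% higher and 23.2% lower).

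Rbp4 encodes the carrier of retinol in the blood. It was read at 2.12 and 2.48 CPM in P4 WT and at 2.49, 2.64 and 2.69 CPM in P4 cKO. At P7 the WT sample held 8.22 CPM, and the cKO samples held 11.6, 9.25 and 7.68 CPM. Every P7 sample was thus above every P4 sample. The log2 rise was 1.84 in WT (SE 0.33, edgeR adjusted p = 0.00399) and 1.87 in cKO (SE 0.23, edgeR adjusted p = 0.00023), and it passed in all 19 alternative settings tried in both genotypes. Rbp4 lies on chromosome 19 (38116620 to 38125321, GRCm38, minus strand).

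Crabp1 and Crabp2 encode a pair of small cytosolic proteins that bind retinoic acid. CRABP2 is known to pass its ligand to the nuclear receptors, and CRABP1 to hold it in the cytosol. Crabp1 (chromosome 9, 54764748 to 54773110) was read at 3.38 and 6.34 CPM in P4 WT and at 6.42, 4.79 and 5.37 CPM in P4 cKO. At P7 it reached 31.0 CPM in WT and 52.4, 65.9 and 43.4 CPM in cKO, with no overlap between the ages. The rise of Crabp1 was the largest among the 9 genes in both genotypes, with a log2 change of 2.67 in WT (SE 0.35, edgeR adjusted p = 0.00118, a 6.36-fold rise) and 3.28 in cKO (SE 0.26, edgeR adjusted p = 1.8e-05, a 9.74-fold rise). It passed in all 19 alternatives in both.

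Crabp2 (chromosome 3, 87948693 to 87953372) took another course. It was read at 4.77 and 4.01 CPM in P4 WT and at 0.780 CPM in P7 WT, where the 2 libraries held 21 and 24 reads. In cKO it stood at 2.66, 6.54 and 3.35 CPM at P4 and at 5.07, 2.41 and 1.85 CPM at P7, so that the ages overlapped. Crabp2 fell by 2.49 on the log2 scale in WT (SE 0.72, edgeR adjusted p = 0.0313), a call that was lost without P4 WT library 1 (log2 -2.37, edgeR adjusted p = 0.110). In cKO the log2 change was -0.43 (SE 0.42, edgeR adjusted p = 0.473), or -0.97 without P7 cKO library 1 (edgeR adjusted p = 0.0570), the library with 5.07 CPM.

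**Figure D2:**
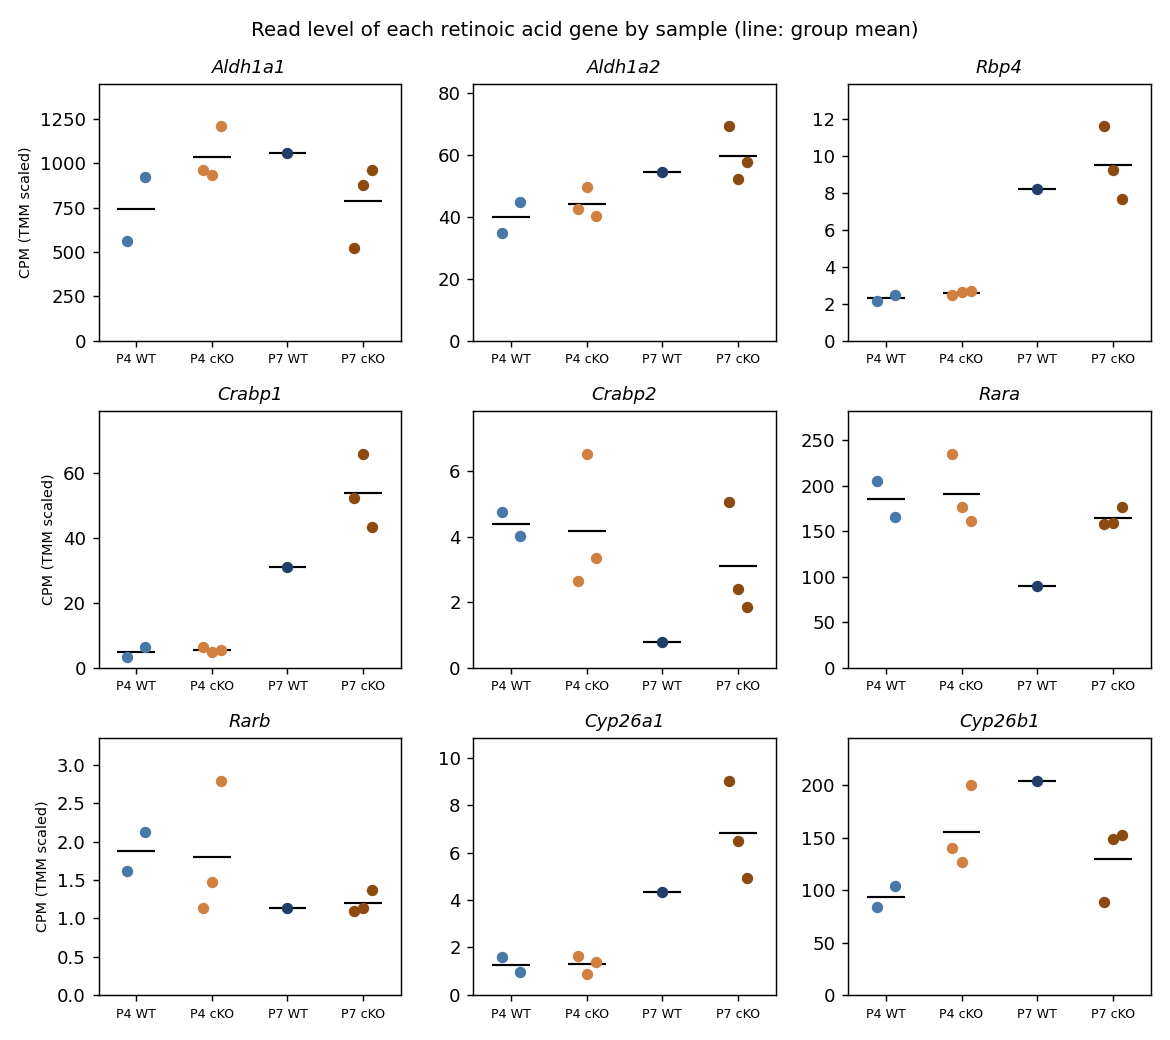
Read level (CPM on the TMM scale, linear axes from 0) of each of the 9 genes, with 1 point per sample and a line at the group mean; P7 WT is 1 point, the sum of 2 libraries. Rbp4, Crabp1 and Cyp26a1 are higher in every P7 sample than in every P4 sample, while Crabp2 and Rara are lowest in P7 WT.

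Cyp26a1 and Cyp26b1 encode the enzymes that clear retinoic acid. Cyp26a1 (chromosome 19, 37697808 to 37701536) is itself a classical target of the retinoic acid receptors, as is Rarb (chromosome 14, 16430840 to 17082331). Receptor pairs bind direct repeats of a 6-base half-site, often with 5 or 2 bases between them. The half-site AGGTCA, its variant AGTTCA, a further variant GGGTCA and finally the variant GGTTCA were searched in every combination and on both strands, in the windows from 250 bases before to 50 bases after each RefSeq start (GRCm38.p6). Of the 9 genes, 8 had such a window, and a repeat with 5 bases between its half-sites stood in that of Rarb and that of Cyp26a1 alone among them. It stood in 32 of 32851 windows (0.0974%), or in 31 of 27025 genes (0.115%). Both genes were known targets beforehand, so finding the repeat in them is no independent result. The repeat with 2 bases between stood in none of the windows of the 8 genes and in 0.268% of all windows. The 80 bases before the start are shown, on the gene's strand, for the pair of genes that hold the repeat and for Crabp1, the gene with the highest rise, with the repeat in capitals.
Rarb: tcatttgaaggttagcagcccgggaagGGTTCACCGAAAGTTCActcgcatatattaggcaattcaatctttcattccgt
Cyp26a1: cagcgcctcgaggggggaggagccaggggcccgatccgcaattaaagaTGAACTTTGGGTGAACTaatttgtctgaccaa
Crabp1: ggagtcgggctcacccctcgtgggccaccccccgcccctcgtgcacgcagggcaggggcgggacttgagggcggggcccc
The Rarb stretch is chr14:16575477-16575556 (minus strand), that of Cyp26a1 chr19:37697728-37697807 (plus strand) and that of Crabp1 chr9:54764668-54764747 (plus strand). The repeat lay 53 to 37 bases before the RefSeq start of Rarb that was searched. That start lies inside the counted span of Rarb and not at its outer end on the minus strand, 17082331. Reads of Rarb were counted over the whole gene and not from that start alone. In Cyp26a1 the repeat lay 32 to 16 bases before the start, on the opposite strand, where it reads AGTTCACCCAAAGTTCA. A match of letters is a description of the window and not evidence of binding in these cells.

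Of the pair of genes that hold the repeat, Cyp26a1 was called higher at P7 and Rarb was not. Their courses were not tested against each other. Cyp26a1 was read at 1.59 and 0.943 CPM in P4 WT and at 1.65, 0.890 and 1.40 CPM in P4 cKO. At P7 the WT sample held 4.34 CPM, and the cKO samples held 9.02, 6.48 and 4.91 CPM, with all P7 samples above all P4 samples. Cyp26a1 rose by 1.78 on the log2 scale in WT (SE 0.48, edgeR adjusted p = 0.0229) and by 2.36 in cKO (SE 0.34, edgeR adjusted p = 0.00054). The call in cKO passed in all 19 alternatives. The call in WT was lost without P4 WT library 1 (2.19, edgeR adjusted p = 0.0536) or P4 WT library 2 (1.45, edgeR adjusted p = 0.0910).

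Rarb was near the lower limit of what these libraries can measure, with 32 to 106 reads per library. It was read at 1.62 and 2.12 CPM in P4 WT, 1.13, 1.47 and 2.79 CPM in P4 cKO, 1.13 CPM in P7 WT and 1.09, 1.13 and 1.36 CPM in P7 cKO. The log2 change from P4 to P7 was -0.73 in WT (95% interval -2.20 to 0.73, edgeR adjusted p = 0.372) and -0.59 in cKO (-1.56 to 0.38, edgeR adjusted p = 0.261). A rise of Rarb as large as that fitted for Cyp26a1 lay outside both intervals.

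Cyp26b1 (chromosome 6, 84571414 to 84593908, minus strand) is the CYP26 enzyme known to shield germ cells of the fetal testis from retinoic acid. Per length it exceeded Cyp26a1 in every sample. It was read at 84.3 and 103.6 CPM in P4 WT and at 204.5 CPM in P7 WT. In cKO it ran from 127 to 201 CPM at P4 (140.2, 127.1 and 200.5) and from 88.6 to 153 CPM at P7 (88.6, 148.5 and 152.6), where the ages overlapped. Cyp26b1 rose by 1.12 on the log2 scale in WT (SE 0.34, edgeR adjusted p = 0.0362), and its change in cKO was -0.26 (SE 0.23, edgeR adjusted p = 0.425). The call in WT was lost without P4 WT library 1 (0.97, edgeR adjusted p = 0.171), P4 WT library 2 (1.28, 0.0557) or P4 cKO library 1 (1.11, 0.0501).

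Rara (chromosome 11, 98937696 to 98974942) encodes the main RAR by level in this tissue, at 206 and 166 CPM in P4 WT and at 90.0 CPM in P7 WT. In cKO it was read at 235, 176 and 161 CPM at P4 and at 158, 159 and 176 CPM at P7. Only the P7 WT sample stood below the others, and its 2 libraries held 2385 and 2807 reads of Rara. Rara fell by 1.04 in WT on the log2 scale (SE 0.27, edgeR adjusted p = 0.0210) and changed by -0.22 in cKO (SE 0.17, edgeR adjusted p = 0.380). The call in WT was lost without P4 WT library 1 (-0.89, edgeR adjusted p = 0.0977) and with offsets that correct for gene length and GC content (-0.53, edgeR adjusted p = 0.104). The GC content of Rara was 59.2%, the highest of the 9 genes.

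The ALDH1A enzymes did not pass between the ages. Aldh1a1 (chromosome 19, 20492583 to 20643463), known from Sertoli cells, was read at 564 and 920 CPM in P4 WT and 1055 CPM in P7 WT. In cKO it stood at 962, 934 and 1207 CPM at P4 and at 519, 874 and 964 CPM at P7. The log2 changes of Aldh1a1 were 0.51 in WT (95% interval -0.45 to 1.46, edgeR adjusted p = 0.340) and -0.40 in cKO (-1.04 to 0.25, edgeR adjusted p = 0.261). Its exons share 339 bases with E030003E18Rik on the same strand, a gene with 160 reads in all libraries, and the related copy Aldh1a7 could exchange reads with it, so its counts are uncertain to that extent.

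Aldh1a2 (chromosome 9, 71215789 to 71296243), the enzyme known to make retinoic acid in germ cells and in the embryo, was read at 34.8 and 44.9 CPM in P4 WT and 54.5 CPM in P7 WT. In cKO it was read at 42.7, 49.6 and 40.3 CPM at P4 and at 69.2, 52.2 and 57.6 CPM at P7, so that the ages did not overlap in either genotype. The log2 changes of Aldh1a2 were 0.45 in WT (edgeR adjusted p = 0.211) and 0.43 in cKO (SE 0.17, edgeR adjusted p = 0.0764). In cKO it passed with library totals as the scale (0.61, edgeR adjusted p = 0.0188) and with the P7 WT libraries taken apart (0.43, edgeR adjusted p = 0.0462). The latter fit counts 2 libraries close to sampling noise as separate samples. It called 6312 of all genes in the cKO course, beside 5372 in the 9-sample fit.

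Some of the cell markers also moved with age, and their part in the changes was not tested. Of all genes tested, 11.8% rose and 9.97% fell in WT, and 14.5% rose and 14.7% fell in cKO. The list of 10 spermatogonial markers holds Stra8 and Kit, which also count below among the genes known to respond to retinoic acid. Of these 10 markers, 7 rose in WT, and 7 rose and 1 fell in cKO. Their summed level went from 268 to 376 CPM in the P4 samples to 1239 to 1582 CPM in the P7 samples. None of these markers was at 0 in any sample. Of 6 markers of the interstitial stroma, 3 fell in WT and 6 in cKO, from 2197 to 3109 CPM at P4 to 762 to 1417 CPM at P7. The summed Sertoli cell markers were 2956 and 3705 CPM in P4 WT and 4689 CPM in P7 WT. In cKO the sums ran from 4693 to 5331 CPM at P4 and from 4562 to 4846 CPM at P7. Of the 10 Sertoli cell markers, 3 rose and 1 fell in WT, and 3 rose and 2 fell in cKO. Of the 6 spermatid markers, genes of late haploid germ cells, 5 fell in WT, as Crabp2 did, from sums of 11.3 and 8.22 CPM to 0.416 CPM. None of the 6 held more than 226 reads in any sample, so spermatids cannot be inferred from these markers. In cKO 1 of the 6 rose, and the sums ran from 3.88 to 6.95 CPM at P4 and from 5.54 to 23.4 CPM at P7. Of 8 markers of mesothelium and duct epithelium, 4 fell and 1 rose in each genotype. Of 6 macrophage markers none passed in WT and 5 fell in cKO (66.4 to 116 CPM at P4, 31.7 to 40.8 CPM at P7), and of 5 endothelial markers 3 fell in WT and 4 in cKO.

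By likeness of pattern, measured as the root mean square difference of centred log2 CPM over the 9 samples among 12821 genes, the genes nearest to Crabp1 were Zbtb16, which marks undifferentiated spermatogonia (0.24), and Brsk2 (0.28). Crabp1 itself varied with a standard deviation of 1.61 on that scale. Nearest to Rbp4 (standard deviation 0.94) were Padi2 (0.15) and Gnaz (0.16), and nearest to Cyp26a1 (1.16) were Arid5a (0.25) and Aifm3 (0.28). Rara (0.36) was nearest to Rgs3 (0.063) and Osbpl7 (0.076), Crabp2 (0.85) to Prph (0.33) and Septin1 (0.34), and Cyp26b1 (0.44) to Dcaf7 (0.12) and Celf1 (0.12).

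Other genes of the pathway were taken from lists of receptors, carriers, oxidoreductases, clearance enzymes, responsive genes and receptor coregulators, 52 genes of which 48 were tested. In WT 6 of the 48 rose and 3 fell from P4 to P7 (18.8%, beside 21.8% of all genes), with a median log2 change of -0.19, beside -0.03 over all genes. In cKO 8 rose and 10 fell (37.5%, beside 29.2% of all genes), with a median of 0.02, beside 0.00. Among 11 genes known to respond to retinoic acid, 4 rose in each genotype, namely Stra8, Kit, Rec8 and Meioc, and 2 of the 11 fell in cKO, the transglutaminase gene Tgm2 and Rarres2. Stra8, which gates entry into meiosis, was read at 4.63 and 3.18 CPM in P4 WT and 67.2 CPM in P7 WT, and at 4.83, 5.85 and 3.56 CPM in P4 cKO and 55.7, 86.9 and 58.4 CPM in P7 cKO. Its log2 rise was 4.11 in WT (SE 0.35, edgeR adjusted p = 0.00017) and 3.82 in cKO (SE 0.26, edgeR adjusted p = 7.7e-06). Kit, the receptor that marks differentiating spermatogonia, rose by 1.96 in WT (SE 0.20) and 1.85 in cKO (SE 0.14). Meioc, a regulator of meiotic entry, rose by 2.87 in WT (SE 0.31) and 1.74 in cKO (SE 0.23). Rec8, a meiotic cohesin, rose by 1.47 in WT (SE 0.36, edgeR adjusted p = 0.0154) and 2.53 in cKO (SE 0.26), and its call in WT was lost without P4 WT library 1 (1.59, edgeR adjusted p = 0.0613) or library 2 (1.35, 0.0557).

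**Figure D3:**
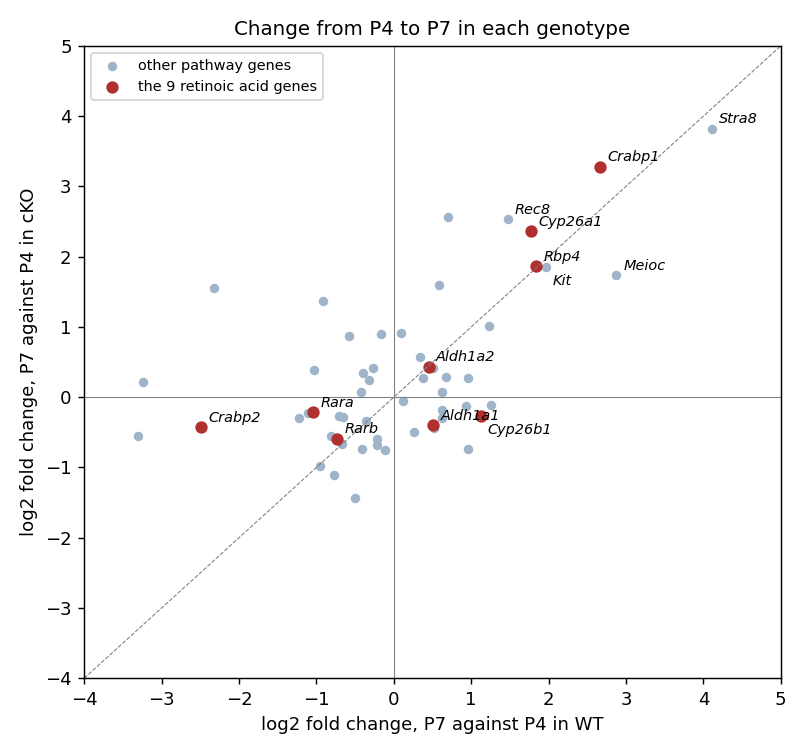
Log2 fold change from P4 to P7 in WT (horizontal axis) and in cKO (vertical axis) for the 9 retinoic acid genes in red and other tested pathway genes in blue, with a dashed line of equal change. Crabp1, Rbp4 and Cyp26a1 lie at the upper right with Stra8, Kit, Meioc and Rec8. Among the 9 genes, Crabp2, Cyp26b1, Aldh1a1 and Rara lie furthest from the line, though none passed for a difference in course in the 9-sample edgeR fit. Rdh7, without a read in P7 cKO, is not drawn.

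Outside the responsive genes the course was mixed. The receptor gene Rarg rose in cKO from 12.8, 14.1 and 11.2 CPM to 17.8, 30.6 and 23.6 CPM (log2 0.92, SE 0.22, edgeR adjusted p = 0.00971), while in WT it was read at 14.0 and 11.1 CPM and then 13.5 CPM. Fabp5, which encodes a fatty acid binding protein that also binds retinoic acid, fell in cKO by 1.11 (SE 0.17, edgeR adjusted p = 0.00089), and the alcohol dehydrogenase gene Adh1 fell by 1.43 (SE 0.34, edgeR adjusted p = 0.00982). The coactivator gene Ncoa1 fell in cKO by 0.74 (SE 0.14). Dhrs3, which turns retinaldehyde back into retinol, fell by 0.81 in WT (edgeR adjusted p = 0.0436) and by 0.56 in cKO (edgeR adjusted p = 0.0257). The Dhrs3 calls passed in 10 and 13 of 19 alternatives. Both were lost without any 1 of the P4 cKO libraries or without P7 cKO library 2 or 3, and without P4 WT library 1 the change in WT was -0.54 (edgeR adjusted p = 0.219). In WT, Ncoa2 (0.95) and Adh4 (1.23) also rose, and Bco1 (-3.31), at 0.927 and 1.53 CPM in P4 WT and 0.121 CPM in P7 WT, and Lipe (-1.11) also fell. Of these, Adh4 passed in 6, Lipe in 13, and Ncoa2 and Bco1 in 18 of 19 alternatives. Ncoa2 did not pass without P4 WT library 1 (0.90, edgeR adjusted p = 0.0653), nor Bco1 without P4 WT library 2 (-2.90, edgeR adjusted p = 0.0610). For Lipe, leaving out the first library of P4 WT, of P4 cKO or of P7 WT ended the call, as did leaving out the second of P4 cKO or of P7 cKO. Adh4 passed without P7 WT library 1 or P7 cKO library 1 but without no other single library. In cKO, Tgm2 fell by 0.67 (SE 0.15), Adh4 rose by 1.02 and Rxra fell by 0.76. Both of the last calls were lost without P4 cKO library 3, and that of Adh4 also without P4 cKO library 2. Rdh7, counted among the genes that fell in cKO, had no read in P7 cKO and is given no fold. Lrat, which stores retinol as esters, was low throughout, at 0.589 to 1.41 CPM.

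**Figure D4:**
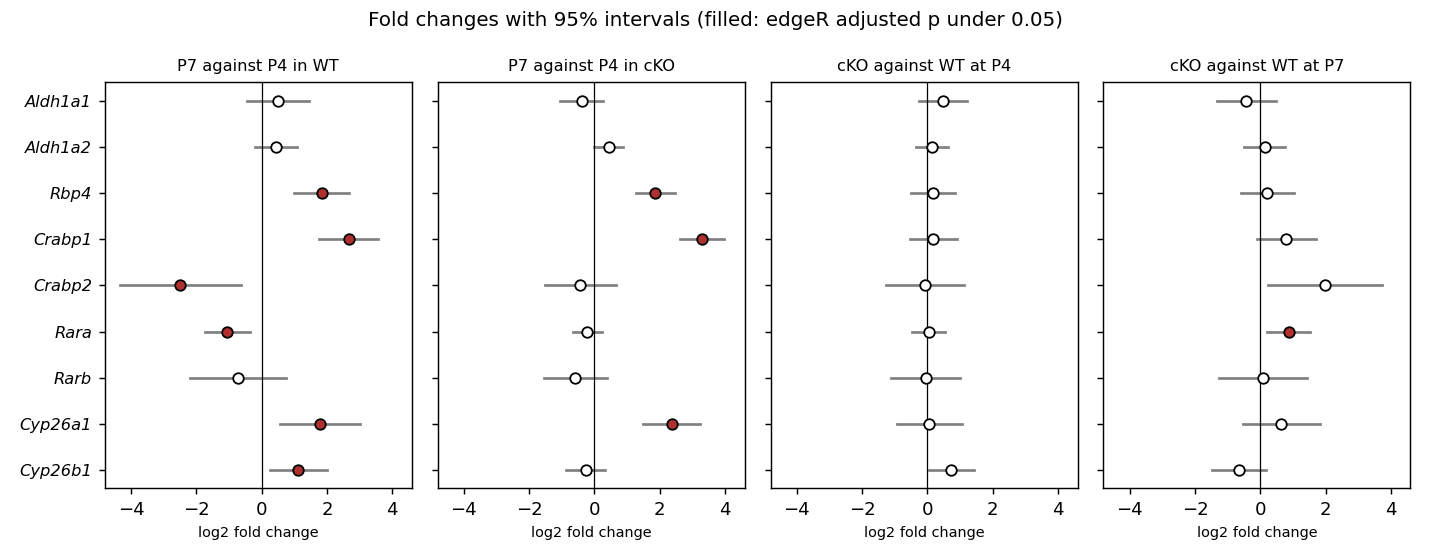
Fitted log2 fold change (point) and 95% interval (bar) of the 9 genes in 4 comparisons, with filled points for edgeR adjusted p under 0.05. Between the ages 6 points are filled in WT and 3 in cKO; between the genotypes none is filled at P4 and that of Rara is filled at P7.

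The second question was whether the genes differ between the genotypes. At P4 none of the 9 genes passed, where 8.96% of all genes were called (4.84% higher and 4.13% lower). At an unadjusted p under 0.05 edgeR called 1 of the 9, Cyp26b1, against 29.3% of all genes, and DESeq2 called none at an adjusted p under 0.05. The groups did not overlap for 3 of the 9, Rbp4, Aldh1a1 and Cyp26b1, all higher in cKO, beside 49.7% of all genes (24.1% higher and 25.6% lower). The median log2 fold change of the 9 was 0.15, beside 0.00 over all genes tested.

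Cyp26b1 had the largest difference at P4. The cKO samples (140.2, 127.1 and 200.5 CPM) stood above both WT samples (84.3 and 103.6 CPM), with a log2 fold change of 0.73 (95% interval 0.05 to 1.42, edgeR adjusted p = 0.100). It passed when the P4 libraries were fitted alone (0.72, edgeR adjusted p = 0.0390) and without P7 cKO library 1 (0.73, edgeR adjusted p = 0.0173). Aldh1a1, at 962, 934 and 1207 CPM in cKO against 564 and 920 CPM, differed by 0.48 (-0.25 to 1.21, edgeR adjusted p = 0.282). For the other 7 genes the fitted differences lay between -0.07 and 0.18, and the intervals of Crabp2 (-1.27 to 1.12), Rarb (-1.12 to 1.01) and Cyp26a1 (-0.94 to 1.07) were wide on both sides of 0. Of the Sertoli cell markers, 4 of 10 were called higher in cKO at P4 and none lower, beside 4.84% and 4.13% of all genes. The sums of the 10 were 4693 to 5331 CPM in cKO against 2956 and 3705 CPM in WT. The fitted difference was above 0 for 7 of the 10. Rhox8 (114 to 121 CPM in cKO against 335 and 196 CPM in WT), Wt1 (382 to 414 against 488 and 487) and Fshr (39.3 to 43.8 against 44.6 and 55.9) were lower in every cKO sample. Of 6 peritubular myoid markers 3 were higher (1516 to 1745 CPM against 1535 and 1557 CPM), and of 6 Leydig cell markers 2 were higher (702 to 881 CPM against 485 and 543 CPM). Of 6 macrophage markers 3 were higher (66.4, 96.3 and 116 CPM against 54.7 and 57.1 CPM), and none of these lists had a member called lower. The fitted difference was above 0 for 4 of the 6 myoid, 6 of the 6 Leydig cell and 4 of the 6 macrophage markers. The myoid marker Mylk was lower in every cKO sample, at 378 to 456 CPM against 577 and 568 CPM. The part of these cell types in the difference of Cyp26b1 was not tested.

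At P7 the contrast set 3 cKO samples against the 1 WT sample, the same sample that the WT course rests on. Rara alone of the 9 genes passed, where 17% of all genes were called (7.26% higher and 9.72% lower). The groups did not overlap for 6 of the 9, 4 higher and 2 lower (70.8% of all genes, 36.2% higher and 34.6% lower). At an unadjusted p under 0.05 edgeR called 3 of the 9 (33.3% of all genes). The median of the 9 was 0.21, beside 0.08 over all genes. Rara was higher in cKO, at 158, 159 and 176 CPM against 90.0 CPM (log2 0.87, SE 0.26, edgeR adjusted p = 0.0412). It was 0.90 without P7 cKO library 1 (edgeR adjusted p = 0.0200). The call was lost with length and GC offsets (0.20, edgeR adjusted p = 0.698), in a fit of the P7 samples alone (0.84, 0.0861), and when any of 4 libraries was left out: the second of P4 cKO (0.87, 0.0669), the first of P7 WT (0.81, 0.0519), and the second (0.89, 0.0830) or the third of P7 cKO (0.82, 0.0756).

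Crabp2 differed more at P7 but with a wide error. The cKO samples held 5.07, 2.41 and 1.85 CPM against 0.780 CPM, a log2 fold change of 1.98 (95% interval 0.23 to 3.74, edgeR adjusted p = 0.0666). It passed with DESeq2 (2.00, DESeq2 adjusted p = 0.0101), with the P7 WT libraries taken apart (2.00, edgeR adjusted p = 0.0104) and without P7 cKO library 3 (2.25, edgeR adjusted p = 0.0448), and was 1.44 without P7 cKO library 1 (edgeR adjusted p = 0.0547). Of the 6 spermatid markers, 4 were higher in cKO at P7 and none lower, beside 7.26% and 9.72% of all genes. The 4 were Prm1, Prm2, Tnp2 and Smcp, each without a read in the 1 P7 WT sample. The spermatid sum was 23.4, 6.31 and 5.54 CPM in cKO and 0.416 CPM in WT, the order of the P7 samples by Crabp2. At P4 the orders differed. The spermatid sum was then 11.3 and 8.22 CPM in WT and 3.88, 6.95 and 3.98 CPM in cKO. Crabp2 at P4 was highest in cKO library 2, at 6.54 CPM against 4.77 and 4.01 CPM in WT. Markers of mesothelium and duct epithelium, with 1 of 8 higher and none lower, summed to 74.5, 111 and 100.1 CPM in cKO and 62.7 CPM in WT. The part of either list in the Crabp2 difference was not tested. Crabp1, at 52.4, 65.9 and 43.4 CPM against 31.0 CPM, differed by 0.80 (-0.11 to 1.70, edgeR adjusted p = 0.137), and with length and GC offsets the value was -0.26.

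Both CYP26 genes missed the threshold at P7, with opposite signs. Cyp26a1 stood at 9.02, 6.48 and 4.91 CPM in cKO against 4.34 CPM in WT (log2 0.65, 95% interval -0.54 to 1.84, edgeR adjusted p = 0.352). Cyp26b1 stood at 88.6, 148.5 and 152.6 CPM against 204.5 CPM (-0.65, -1.47 to 0.16, edgeR adjusted p = 0.174), and at -0.44 without P7 cKO library 1. Aldh1a1 was lower in each cKO sample (519, 874 and 964 CPM against 1055 CPM), with a log2 value of -0.43 (-1.32 to 0.47, edgeR adjusted p = 0.419) and of -0.20 without P7 cKO library 1. Rbp4 (0.21), Aldh1a2 (0.13) and Rarb (0.09) overlapped between the genotypes.

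The difference between the genotype effects at P7 and P4 was tested as an interaction, in which edgeR called none of the 9 genes and none of the 18419 (0%). At an unadjusted p under 0.05 it called 3 of the 9 and 25.1% of all genes. DESeq2 called 1 of the 9 and 1720 of all genes. The 3 genes were Cyp26b1 (log2 -1.39, SE 0.41, edgeR adjusted p = 0.0951), Rara (0.83, SE 0.32, edgeR adjusted p = 0.145) and Crabp2 (2.06, SE 0.81, edgeR adjusted p = 0.151). Cyp26b1 was the one that DESeq2 called (-1.36, DESeq2 adjusted p = 0.0323), and it also passed in edgeR without P7 cKO library 1 (-1.17, edgeR adjusted p = 0.0405). The values of the others were -0.90 for Aldh1a1, 0.61 for Crabp1, 0.59 for Cyp26a1, 0.14 for Rarb, 0.03 for Rbp4 and -0.02 for Aldh1a2. In the 9-sample edgeR fit the different courses of Crabp2, Rara and Cyp26b1 in WT and cKO thus missed the threshold for a difference. With the P7 WT libraries taken apart, Cyp26b1 (-1.36, edgeR adjusted p = 0.0256) and Rara (0.86, edgeR adjusted p = 0.0391) passed. That fit counts 2 libraries close to sampling noise as separate samples. It called 3105 of all genes in the interaction, beside 0 in the 9-sample fit.

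Among the other pathway genes, 4 of 48 were higher and 2 lower in cKO at P4 (12.5%, beside 8.96% of all genes), with a median log2 fold change of 0.02, beside 0.00 over all genes. The partners of the RARs were among them. Rxra was read at 89.8 to 115 CPM in cKO against 38.9 and 53.9 CPM in WT (log2 1.10, SE 0.26, edgeR adjusted p = 0.0277). Rxrb was read at 68.7, 55.5 and 61.9 CPM against 43.6 and 38.2 CPM (0.60, SE 0.17, edgeR adjusted p = 0.0496). Tgm2 was higher by 1.08 (SE 0.18, edgeR adjusted p = 0.0122). Meioc (-1.09, edgeR adjusted p = 0.0260) and the carotenoid cleaving enzyme gene Bco2 (-2.60, edgeR adjusted p = 0.0347) were lower. Without P4 WT library 1 none of these 5 genes passed (edgeR adjusted p from 0.186 to 0.275), nor without P4 cKO library 2 or library 3. Without P4 WT library 2, Rxrb, Meioc and Bco2 did not pass, and without P4 cKO library 1, Rxra, Rxrb, Meioc and Bco2 did not pass. Rxrb also did not pass without P7 cKO library 2 (0.60, edgeR adjusted p = 0.0654) or library 3 (0.60, edgeR adjusted p = 0.0675), and with length and GC offsets it was 0.26. Stra8 (0.28), Kit (-0.26), Rarg (0.01), Stra6 (0.23) and Dhrs3 (0.23) did not pass, nor did Rdh10, which makes retinaldehyde from retinol and was read at 30.1, 30.6 and 46.7 CPM in cKO against 14.4 and 23.1 CPM in WT. Aldh1a3 was read at 7.32 to 10.5 CPM in cKO and at 4.50 and 5.84 CPM in WT.

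At P7, 5 of 48 were higher and 4 lower in cKO, with a median of 0.11, beside 0.08 over all genes. These 18.8% are near the 17% of all genes called, so the count says nothing particular of the pathway. Rxrb (1.11, SE 0.23, edgeR adjusted p = 0.0119), Lipe (1.12, edgeR adjusted p = 0.0348) and Rec8 (1.17, edgeR adjusted p = 0.0479) were among the higher genes. Meioc, at 8.20, 9.55 and 9.34 CPM against 42.3 CPM (-2.23, SE 0.27, edgeR adjusted p = 0.00642), the coactivator gene Ncoa2 (-1.04, SE 0.19), the corepressor gene Ncor1 (-0.66) and Aldh1a7 (-1.36) were lower. With length and GC offsets none of these 7 genes passed (edgeR adjusted p from 0.119 to 0.787), and Rxrb was then 0.14. Lipe, Rec8, Ncor1 and Aldh1a7 also did not pass without P7 cKO library 2 (edgeR adjusted p from 0.0782 to 0.124) and passed in 10 to 14 of 19 alternatives each. Further libraries that ended a call when left out were P7 cKO library 3 for Rec8 and Aldh1a7, P7 WT library 1 for Lipe, both P4 WT libraries for Rec8 and Ncor1, and P4 cKO libraries for all 4 (library 1 for Lipe, Ncor1 and Rec8, library 2 for Lipe, Aldh1a7 and Ncor1, and library 3 for Ncor1 and Rec8). Stra8 was read at 55.7, 86.9 and 58.4 CPM in cKO and at 67.2 CPM in WT (-0.01), and Kit at 92.4, 95.8 and 90.0 CPM in cKO and at 120 CPM in WT (-0.38), neither of which passed.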

How the data were processed

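RNA of mouse testis was sequenced in 10 libraries. The submitters' processing notes name STAR 2.7.11a, Subread 2.0.6 with featureCounts, Trim Galore 0.6.10, SAMtools 1.6, FastQC 0.12.1 and MultiQC 1.14, and the build GRCm38 (mm10). The deposited table holds the authors' raw read counts per gene and, per the file headers, exon lengths. Strand setting and treatment of multi-mapping reads: not given in the sources used here. Even numbers made up 67.8% to 80% of low counts (below 50 reads), which happens if each mate of a pair is counted, so reads are not independent molecules.

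Samples were grouped by title, and count columns were matched to titles by name, with L7 read as the Lsm7 cKO. The 2 P7 WT libraries were summed. Counts were filtered with filterByExpr, scaled with TMM and fitted in R 4.3.3 by the robust quasi-likelihood method of edgeR 4.0.16, with a mean for each group over 9 samples (5 residual degrees of freedom), with Benjamini-Hochberg adjustment over 18419 genes and a threshold of 0.05. Standard errors are the log2 fold change over the square root of F, and 95% intervals use the t distribution on 5 degrees of freedom. The edgeR test uses further degrees of freedom shared across genes. An interval can therefore span 0 where the unadjusted p is under 0.05. The lone P7 WT sample is assumed to vary like the others. Scripts were tested on simulated data.

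The members, lists and the rule for named genes were chosen with earlier results of these data known. The rule takes all 9 members, 11 pathway genes named whatever their result, up to 6 other called pathway genes per comparison, and the 2 most like genes per called member. Some genes that the rule names are not reported here. Alternatives were RLE factors, library totals, no filter, a minimum count of 50, DESeq2 1.42.0, the compared groups alone, 10 libraries, a replicate block, length and GC offsets, and leaving out each library. Promoters are from RefSeq (GRCm38.p6). GC content came from GENCODE transcripts, for 97.7% of tested genes.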

Additional observations from a re-analysis of the deposited data

How the results depend on the processing

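The rises of Crabp1, Rbp4 and Cyp26a1 in cKO and of Crabp1 and Rbp4 in WT passed in all 19 alternatives. Members called from P4 to P7 ran from 2 to 6 in WT and were 3 in cKO when 1 library was left out, and at P4, at P7 and in the interaction from 0 to 1 each. Members called at P4 were 1 with the compared groups alone (main 0). At P7 they were 2 with DESeq2, 0 with the P7 samples alone, 3 with 10 libraries, 5 with the replicate block and 0 with length and GC offsets (main 1). In the interaction they were 1 with DESeq2, 2 with 10 libraries and 4 with the replicate block (main 0).

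All genes called at P4 were 1651, but 3020 with DESeq2, 3229 in the P4 libraries alone, 2895 with 10 libraries, 2732 with the replicate block and 659 with offsets, and 2 (without P4 WT library 1) to 4157 (without P7 cKO library 1). At P7 they were 3129, but 0 in the P7 samples alone, 6905 with 10 libraries, 7438 with the block, 2 with offsets, and 961 (without P7 cKO library 2) to 4921 (without P7 cKO library 1). In the WT course they were 4016, but 7279 with 10 libraries, 7812 with the block, and 1187 (without P4 WT library 1) to 6315 (without P7 cKO library 1). In the cKO course, 5372 ranged from 3520 to 5569 with 1 library left out. Interaction calls (main 0) were 3 with library totals, 431 without a filter, 1720 with DESeq2, 3105 with 10 libraries, 4311 with the block, 1 with offsets, and 0 to 1455 with 1 library left out (highest without P7 cKO library 1). Library totals moved the median of all genes to -0.16 at P4, 0.19 at P7, -0.11 in the WT course and 0.18 in the cKO course. The split was then 528 higher and 1544 lower at P4 (main 891 and 760), 1744 and 1402 at P7 (main 1338 and 1791), and 3907 and 1818 in the cKO course (main 2663 and 2709). With offsets it was 231 and 428 at P4, and with 10 libraries 3648 and 3257 at P7.

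Signs turned only in values that had not passed. At P4 these were, with library totals, Rara (-0.12), Aldh1a2 (-0.0084) and Cyp26a1 (-0.10), with a minimum count of 50 Rara (-0.0083), with the block Crabp2 (0.16), and with offsets Rara (-0.18), Crabp1 (-0.37), Rbp4 (-0.20) and Cyp26a1 (-0.18). At P7 they were Rarb with the block (-0.15) and Crabp1 (-0.26) and Rbp4 (-0.52) with offsets. In the interaction they were Rbp4 with offsets (-0.32) and Aldh1a2 with RLE factors (0.0099), library totals (0.25), a minimum count of 50 (0.061), DESeq2 (0.0099), 10 libraries (0.0074), the block (0.0097) and offsets (0.00015). With 1 library left out, signs turned within these ranges: at P4 Aldh1a2 -0.026 to 0.35, Crabp1 -0.20 to 0.71, Crabp2 -0.56 to 0.16, Cyp26a1 -0.27 to 0.48, Rara -0.15 to 0.20 and Rarb -0.54 to 0.18; at P7 Rarb -0.018 to 0.16; in the cKO course Crabp2 -0.97 to 0.048; in the interaction Aldh1a2 -0.21 to 0.17, Rarb -0.093 to 0.63 and Rbp4 -0.14 to 0.25. The cause was not tested.

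The replicate block took the numbers of the titles, which nothing ties to animals or litters. Same-numbered P4 libraries of the 2 genotypes deviated from their group means with r = 0.40 and -0.21 across 13351 genes. In a group of 2 libraries such deviations mirror each other, so the 2 values are not separate evidence. Over all same-numbered pairs, r ran from -0.28 (P4 cKO 2 with P7 cKO 2) to 0.49 (P4 WT 1 with P7 cKO 1). Not every sample correlated best with its own number. These values cannot decide whether the numbers mark a true pairing. Low depth limits Rarb, Crabp2 and Cyp26a1, each with at most 297 reads in any sample.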
